A study of Mus musculus with 20 samples.

Results

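The 7 genes described here encode transcription factors that set up and maintain myeloid cells: *Spi1*, *Irf8*, *Irf5*, *Cebpa*, *Cebpb*, *Runx1* and *Ikzf1*. They were chosen by gene name, and all 7 were found, each once, among 45705 genes, of which 27614, including the 7, had an RPKM (reads per kilobase of gene, scaled to the size of the library) of at least 1 in at least 4 libraries and were tested. The libraries came from the periventricular zone of Swiss Webster mice at postnatal day 5, with all pups of a litter pooled, males and females together. Dissociated cells were stained for 4 surface antigens (CD133, CD15/LeX, CD140a and NG2) and sorted into 5 populations: neural stem cells (NSC) and the progenitor populations BNAP/GRP1, GRP2/MP3, GRP3 and PFMP. Each population was sequenced once in each of 4 batches, which gives 20 libraries and n = 4 per population. No animal carried a transgene or received a treatment, and no antigen for removing blood or myeloid cells was among the 4.

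Spi1 encodes PU.1, an ETS factor without which macrophages, microglia and B cells do not form. It acts with C/EBP factors on myeloid genes and with IRF8 on composite sites, while RUNX1 and Ikaros (the product of *Ikzf1*) act earlier, in blood stem and progenitor cells, and stay on in many of their descendants. In the brain, microglia depend on PU.1 and IRF8, while C/EBPβ is also induced by stress and inflammation in many other cell types.

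*Spi1* lies at chr2:91082390-91115756 and *Cebpb* at chr2:167688915-167690418, both on the plus strand (GRCm38, GENCODE vM21). *Irf5* is at chr6:29526625-29541871, *Cebpa* at chr7:35119293-35121928, *Irf8* at chr8:120736358-120756694 and *Ikzf1* at chr11:11685003-11772926, all on the plus strand, and *Runx1* is on the minus strand at chr16:92601466-92826149. *Cebpb* is annotated with 1 exon, so its reads cannot be set apart from genomic DNA by splicing. Genes annotated on the opposite strand overlap *Irf5* (*Tnpo3*, 15.02 to 60.9 RPKM over the 20 libraries), *Cebpb* (*Tmem189*, 2.79 to 106 RPKM), *Cebpa*, *Runx1* and *Ikzf1*, and *Gm20388* overlaps *Irf8* on its own strand. Whether the counting used strand is not given in the sources used here, so reads in the overlaps could belong to either gene.

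In batches 1 and 2, 6 of the 7 genes were higher in both BNAP/GRP1 and GRP2/MP3 than in NSC, GRP3 and PFMP. *Cebpb* was not, with NSC above BNAP/GRP1 in both batches. The 250 bases before the start site were therefore searched for the letters that the products of the 7 genes bind. RefSeq promoters (GRCm38.p6) held entries for 6 of the 7 genes. Shown are *Irf8*, *Irf5* and *Runx1* (its downstream start) as genes with that pattern, and *Cebpb* as the gene without it, each 5′ to 3′ on the gene's strand, with matches in capitals.
Irf8, chr8:120736108-120736357: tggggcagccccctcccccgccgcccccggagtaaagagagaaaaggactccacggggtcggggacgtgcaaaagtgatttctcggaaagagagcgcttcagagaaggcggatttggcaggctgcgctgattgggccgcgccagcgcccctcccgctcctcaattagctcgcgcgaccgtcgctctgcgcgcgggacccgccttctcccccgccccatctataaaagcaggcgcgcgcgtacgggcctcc
Irf5, chr6:29526375-29526624: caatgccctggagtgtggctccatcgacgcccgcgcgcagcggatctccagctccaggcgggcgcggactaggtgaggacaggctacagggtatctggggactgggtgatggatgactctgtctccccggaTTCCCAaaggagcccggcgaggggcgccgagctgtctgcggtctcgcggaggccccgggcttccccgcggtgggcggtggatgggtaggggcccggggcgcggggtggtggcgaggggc
Runx1, chr16:92697330-92697579: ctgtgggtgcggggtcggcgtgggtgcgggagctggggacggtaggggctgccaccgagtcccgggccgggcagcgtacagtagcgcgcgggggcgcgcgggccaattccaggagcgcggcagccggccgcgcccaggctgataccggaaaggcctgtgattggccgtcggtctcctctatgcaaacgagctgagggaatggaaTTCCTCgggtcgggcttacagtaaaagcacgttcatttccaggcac
Cebpb, chr2:167688665-167688914: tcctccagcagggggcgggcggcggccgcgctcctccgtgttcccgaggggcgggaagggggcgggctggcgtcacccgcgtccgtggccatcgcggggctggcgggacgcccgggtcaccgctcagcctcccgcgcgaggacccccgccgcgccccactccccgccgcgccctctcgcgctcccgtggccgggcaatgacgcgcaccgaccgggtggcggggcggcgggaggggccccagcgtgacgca
Searched on both strands were GAGGAA (PU.1 type ETS), GAAA, 2 free bases and GAAA again (interferon response element), GGAA, 2 free bases and GAAA (ETS and IRF composite), TTGCNNAA (C/EBP), TGTGGT (RUNX) and TGGGAA (Ikaros). The capitals in *Irf5* mark TGGGAA on the other strand, and those in *Runx1* mark GAGGAA on the other strand. Over 9 start sites of the 6 genes, the only other match was TGGGAA at the second start of *Irf8*. Of 32851 promoters of this length, 23.3% held GAGGAA, 21.6% TGGGAA, 14.0% TGTGGT, 9.56% TTGCNNAA, 2.98% the interferon response element and 2.3% the ETS and IRF composite. A match is a run of letters and was not tested for binding.

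The 5 libraries of batch 3 stood apart from the rest. Pearson's r of log2(RPKM + 1) over all genes was 0.940 to 0.970 between them, against 0.755 to 0.909 within batch 1, 0.739 to 0.891 within batch 2 and 0.332 to 0.862 within batch 4. Their summed RPKM over 12 alveolar macrophage markers was 1396 to 1634, and over 7 B and plasma cell markers 506 to 550, against at most 140 and 62.1 in any other library. Erythroid markers, mostly haemoglobin genes, summed to 228440 to 252653 RPKM there and to 13.4 to 26515 RPKM elsewhere. Markers of NSC and astroglia summed to 150 to 268 RPKM in batch 3 and to 333 or more in every other library. By these markers the 5 libraries went against their labels as sorted neural cells. Ependymal markers differed between the 5 libraries, with sums from 1.96 to 1104 RPKM and with 0 to 6 of 6 genes at 5 RPKM or more. *Slc1a3*, an astroglial transporter, reached 7.18 RPKM at most in batch 3 and 13.9 to 171 RPKM in the libraries of batches 1 and 2. In batch 4, the BNAP/GRP1 library had a median RPKM over all genes of 8.30, against 0 to 2.02 in the other 19, and the 7 factors, at 9.62 to 28.9 RPKM, lay between the percentiles 57.6 and 90.1 of its genes. Results are therefore given with batch 3 and without it, and a batch 3 value is that of the library labelled with the population. Depth can be compared only in relative terms: one read was worth the least in BNAP/GRP1 of batch 3, 8.96 times as deep as NSC of batch 1, and the most in BNAP/GRP1 of batch 4, at 0.251 times.

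*Spi1* was high in BNAP/GRP1 and GRP2/MP3 and almost undetected in NSC, GRP3 and PFMP in batches 1 and 2, and high in every library of batch 3. In BNAP/GRP1 its level was 36.6, 22.8, 192 and 15.7 RPKM in batches 1 to 4, and in GRP2/MP3 it was 50.4, 14.2, 172 and 8.18 RPKM. In NSC it was 0.338, 0.267, 166 and 2.98 RPKM, in GRP3 0.156, 0.597, 189 and 2.83 RPKM, and in PFMP 0.527, 0.215, 180 and 1.56 RPKM. Within batches 1, 2 and 4 every BNAP/GRP1 and GRP2/MP3 library lay above all 3 others of its batch, while in batch 3 the 5 values differed by at most 1.16-fold. The lowest values rest on few reads: steps in the RPKM values give 5 reads in GRP3 of batch 1 (95% Poisson interval 1.62 to 11.7), 6 in NSC of batch 1 and 5 in PFMP of batch 2. These are the smallest whole numbers, within 0.05 of a read, that fit the 12 lowest libraries, so the true counts could be a multiple, and the interval covers counting error only.

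*Irf8*, the partner of PU.1 in microglia and other myeloid cells, followed the same order. It measured 81.1, 18.2, 65.5 and 23.4 RPKM in BNAP/GRP1 and 63.6, 47.4, 60.6 and 6.08 RPKM in GRP2/MP3. NSC held 2.31, 3.34, 54.9 and 5.86 RPKM, GRP3 2.03, 1.59, 61.7 and 4.23 RPKM, and PFMP 1.26, 2.97, 64.6 and 0.360 RPKM. Batches 1 and 2 separated the populations without overlap, and in batch 4 GRP2/MP3 lay next to NSC. Unlike *Spi1*, *Irf8* in BNAP/GRP1 and GRP2/MP3 of batch 1 was as high as in batch 3, at 81.1 and 63.6 against 54.9 to 65.5 RPKM.

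*Irf5*, which drives inflammatory cytokine genes in macrophages, was at 27.1, 16.9, 107 and 12.1 RPKM in BNAP/GRP1 and at 30.5, 17.0, 99.5 and 4.66 RPKM in GRP2/MP3. NSC had 0.130, 1.33, 103 and 2.56 RPKM, GRP3 2.76, 1.45, 101 and 1.93 RPKM, and PFMP 0.812, 0.942, 93.0 and 1.28 RPKM. The 2 high populations did not overlap with the other 3 within batches 1, 2 and 4. Ranked within its library, however, *Irf5* of BNAP/GRP1 in batch 4 was at percentile 68.5, below PFMP at 71.8. In batch 3 the 5 libraries lay between 93.0 and 107 RPKM.

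*Cebpa*, needed for granulocyte and monocyte precursors, was at 21.4, 1.45, 79.2 and 17.7 RPKM in BNAP/GRP1 and 6.32, 33.5, 78.8 and 1.14 RPKM in GRP2/MP3. It was at 1.65, 0.533, 66.3 and 2.08 RPKM in NSC, 0.8285, 0.791, 78.3 and 2.25 RPKM in GRP3, and 0.393, 0.247, 68.6 and 0.0657 RPKM in PFMP. Both populations lay above the other 3 in batches 1 and 2, but in batch 2 BNAP/GRP1 did so by less than 1 RPKM, and in batch 4 GRP2/MP3 lay below NSC and GRP3.

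*Cebpb*, induced by inflammatory signals in myeloid and many other cells, was the exception by its level in NSC. NSC held 26.9, 37.0, 389 and 12.8 RPKM, above GRP3 (5.498, 7.79, 462 and 4.66 RPKM) and PFMP (4.19, 5.04, 438 and 0.598 RPKM) in batches 1, 2 and 4. BNAP/GRP1 had 14.95, 8.00, 446 and 28.9 RPKM and GRP2/MP3 19.7, 45.6, 446 and 8.76 RPKM. NSC was the highest population in batch 1 and the lowest in batch 3, and BNAP/GRP1 lay below NSC in both batches 1 and 2. It was also the highest of the 7 in all 5 libraries of batch 3.

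*Runx1* was at 24.6, 6.78, 15.8 and 18.1 RPKM in BNAP/GRP1 and at 12.4, 24.7, 14.1 and 1.93 RPKM in GRP2/MP3. In NSC it was at 0.909, 0.992, 11.51 and 3.36 RPKM, in GRP3 at 0.934, 0.702, 13.5 and 3.73 RPKM, and in PFMP at 1.67, 0.442, 15.6 and 0.009998 RPKM, the last of these resting on 4 reads. Batches 1 and 2 separated the populations and batch 4 did not, where GRP2/MP3 lay below NSC and GRP3. *Ikzf1* was at 24.0039, 5.26, 13.2 and 9.62 RPKM in BNAP/GRP1 and at 12.97, 28.3, 13.4 and 3.096 RPKM in GRP2/MP3. NSC held 0.370, 0.220, 14.3 and 1.99 RPKM, GRP3 0.292, 0.287, 12.9 and 1.77 RPKM, and PFMP 0.471, 1.64, 13.6 and 0.470 RPKM. For *Ikzf1* both populations lay above the other 3 in batches 1, 2 and 4, and in batch 3 NSC was the highest. Ranked within its library, however, *Ikzf1* of BNAP/GRP1 in batch 4 was at percentile 57.6, below PFMP (65.8) and near NSC (57.2).

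**Figure D1:**
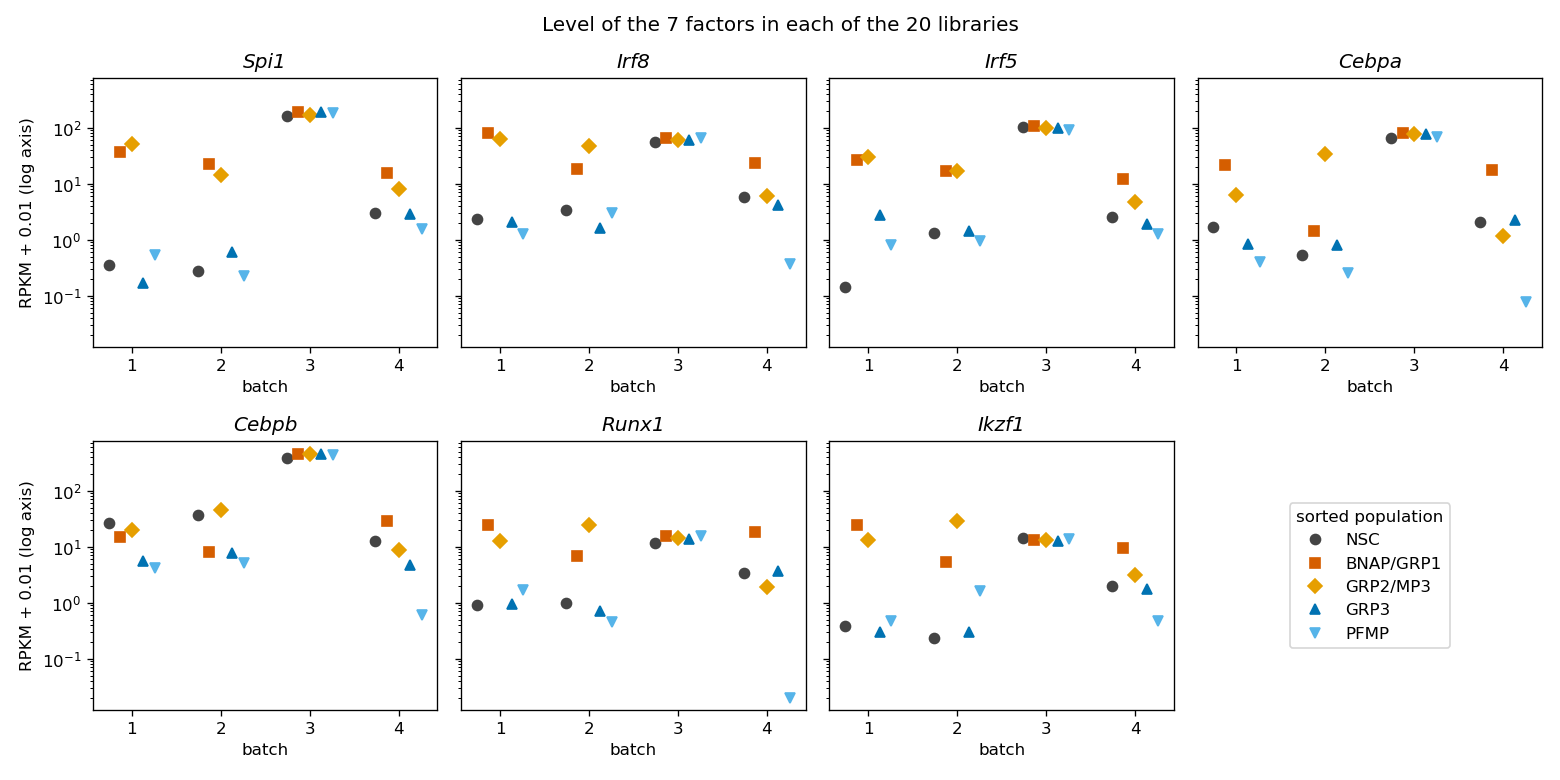
RPKM (log axis) of each factor in the 20 libraries by batch, with 1 symbol per sorted population and 1 library per symbol. In batches 1 and 2 the BNAP/GRP1 and GRP2/MP3 symbols lie above the other 3 for 6 of the 7 factors, and in batch 3 all 5 symbols of a factor nearly coincide.

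Both BNAP/GRP1 and GRP2/MP3 exceeded NSC, GRP3 and PFMP of the same batch for 6 of the 7 factors in both batches 1 and 2, a pattern that 3.56% of all tested genes had. With batch 4 added it held for 4 factors (*Spi1*, *Irf8*, *Irf5* and *Ikzf1*), against 1.18% of tested genes. Within batch 4 alone it held for 4 factors, against 9.01%, and within batch 3 for 1 (*Cebpa*), against 6.07%. In batch 4 these counts follow RPKM: by percentile within the library, *Irf5* and *Ikzf1* of BNAP/GRP1 lay below PFMP. Mean *Spi1* over batches 1, 2 and 4 was 25.1 ± 10.6 RPKM (SD, n = 3) in BNAP/GRP1, 24.3 ± 22.8 RPKM in GRP2/MP3, 1.20 ± 1.44 RPKM in GRP3 and 1.19 ± 1.55 RPKM in NSC. Libraries are sums over sorted cells, so fewer cells of a type and less RNA per cell cannot be told apart.

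Against NSC, the log2 fold changes of the factors in BNAP/GRP1 and GRP2/MP3 were large and positive apart from *Cebpb*, but none passed the test over all 4 batches. For *Spi1* the difference in log2(RPKM + 1) was 2.83 ± 1.76 (SE) in BNAP/GRP1 and 2.53 ± 1.76 in GRP2/MP3 (limma adjusted p = 0.866 and 1). The median over the 7 factors was 2.07 and 1.99, against 0.38 and -0.08 over all tested genes. limma called 0 of the 7 in each of the 4 comparisons with NSC, where it called 0.76%, 1.12%, 1.05% and 1.14% of tested genes in BNAP/GRP1, GRP2/MP3, GRP3 and PFMP. At an unadjusted p under 0.05, 2 passed in BNAP/GRP1 (*Runx1* and *Ikzf1*), 1 in GRP2/MP3 (*Ikzf1*) and 0 in GRP3 and PFMP, against 5.9%, 5.79%, 5.62% and 5.88% of tested genes. With batch as a replicate block, limma again called 0 in each comparison with NSC, against 2.09%, 3.08%, 2.6% and 2.79% of tested genes, and the adjusted p of *Spi1* was 0.0691 and 0.0948. With the block and without batch 3, *Spi1* and *Irf5* were called higher in both BNAP/GRP1 and GRP2/MP3, where 0.308% and 0.585% of tested genes were. *Spi1* was then 3.71 ± 0.77 above NSC in BNAP/GRP1, with an adjusted p of 0.0159. In GRP2/MP3 the difference was 3.35 ± 0.77, with an adjusted p of 0.0236. *Cebpb* was called lower in PFMP, by -2.73 ± 0.69 (adjusted p = 0.0434), where 2.32% of tested genes were lower, and 0 factors were called in GRP3, against 2.66%.

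**Figure D2:**
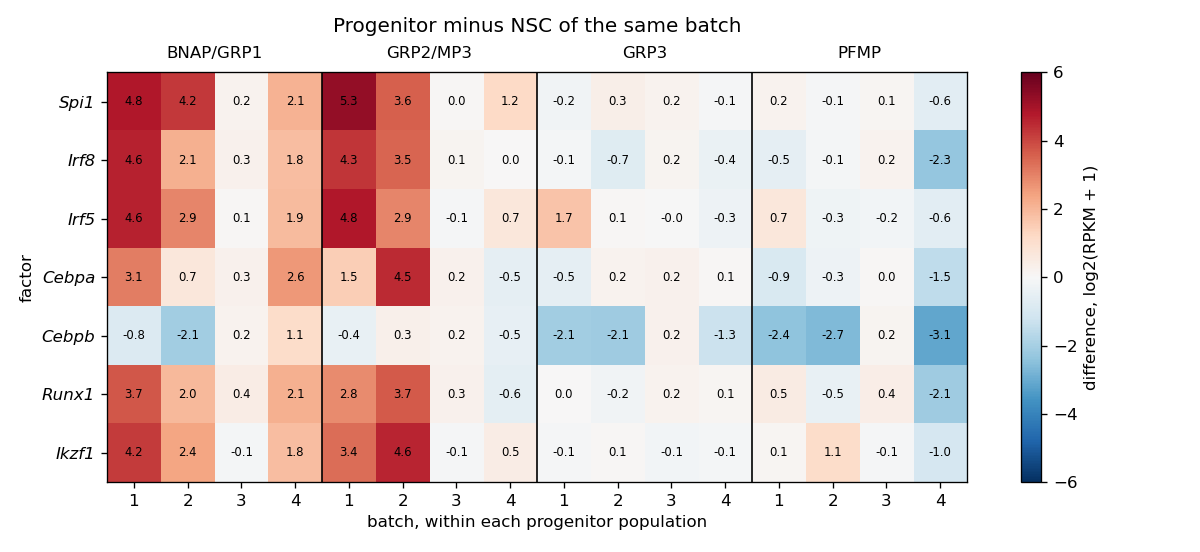
Difference in log2(RPKM + 1) between each progenitor library and the NSC library of its own batch, for the 7 factors (rows) and 16 progenitor libraries (columns), red where the progenitor was higher. *Spi1* was 4.81 and 5.26 higher in BNAP/GRP1 and GRP2/MP3 of batch 1 and 0.21 and 0.05 higher in batch 3.

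The population pair was set against the other progenitors in 1 contrast, BNAP/GRP1 and GRP2/MP3 against GRP3 and PFMP. This contrast was chosen with earlier results of these data known, so its p-values are not independent of them. limma without a batch term called 0 of the 7, and 0% of tested genes, with 4 at an unadjusted p under 0.05 (*Spi1*, *Irf8*, *Runx1* and *Ikzf1*), against 4.41% of tested genes. With the replicate block 3 were called higher, against 0.999% of tested genes: *Spi1* by 2.70 ± 0.55 (adjusted p = 0.0377), *Irf8* by 2.59 ± 0.55 (adjusted p = 0.0377) and *Irf5* by 2.10 ± 0.46 (adjusted p = 0.0399). With the block and without batch 3, 6 were called higher, against 2.05%. *Spi1* was then higher by 3.60 ± 0.54 (adjusted p = 0.00272) and *Cebpb* by 1.88 ± 0.49 (adjusted p = 0.0459). *Cebpa* was not called, at 2.46 ± 0.69 (adjusted p = 0.0651). The 6 direct comparisons between single progenitor populations called 0 of the 7 and 0% of tested genes by limma without a batch term, and BNAP/GRP1 and GRP2/MP3 differed by 0.31 ± 1.76 for *Spi1* and by -0.01 ± 0.95 for *Ikzf1*.

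**Figure D3:**
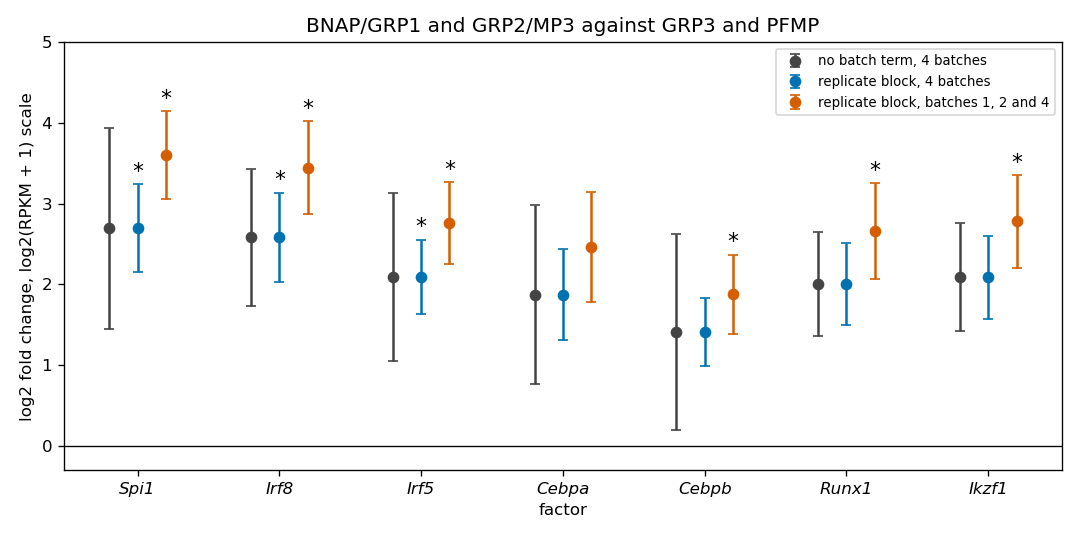
Log2 fold change (points) and standard error (bars) of each factor in BNAP/GRP1 and GRP2/MP3 against GRP3 and PFMP, from limma without a batch term, with the replicate block, and with the block and without batch 3. Stars mark an adjusted p under 0.05: 0, 3 and 6 of the 7 factors.

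Of the summed RPKM of the 7, the shares of *Cebpb*, *Irf8*, *Runx1* and *Ikzf1* did not overlap between batch 3 and BNAP/GRP1 and GRP2/MP3 of batches 1 and 2, and those of *Spi1*, *Irf5* and *Cebpa* did. Shares of a sum depend on each other, so a high *Cebpb* lowers the rest. The levels did overlap for *Irf8* (54.9 to 65.5 RPKM in batch 3 against 18.2 to 81.1) and *Runx1* (11.5 to 15.8 against 6.78 to 24.7). They also did for *Ikzf1* (12.9 to 14.3 against 5.26 to 28.3). Levels did not overlap for *Spi1* (166 to 192 RPKM in batch 3 against 14.2 to 50.4) and *Irf5* (93.0 to 107 against 16.9 to 30.5). Nor did they for *Cebpa* (66.3 to 79.2 against 1.45 to 33.5) and *Cebpb* (389 to 462 against 8.00 to 45.6). The share of all tested genes without such overlap was not computed. In the 5 libraries of batch 3, *Cebpb* made up 48.3% to 50.5% of the summed RPKM of the 7, *Spi1* 19.4% to 20.9%, *Irf8* 6.7% to 7.4% and *Runx1* and *Ikzf1* 1.4% to 1.8% each. In BNAP/GRP1 and GRP2/MP3 of batches 1 and 2, *Cebpb* made up 6.5% to 21.6%, *Irf8* 22.5% to 35.3%, *Runx1* 6.34% to 11.7% and *Ikzf1* 6.6% to 13.4%. *Spi1* made up 6.75% to 28.8% there, *Irf5* 8.08% to 21.3% against 10.6% to 12.8% in batch 3, and *Cebpa* 1.83% to 15.9% against 7.85% to 8.91%. In NSC of batches 1 and 2, 82.5% and 84.7% of the sum was *Cebpb*. RPKM is scaled to gene length, so these shares compare levels between genes, as far as the lengths used by the authors hold.

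**Figure D4:**
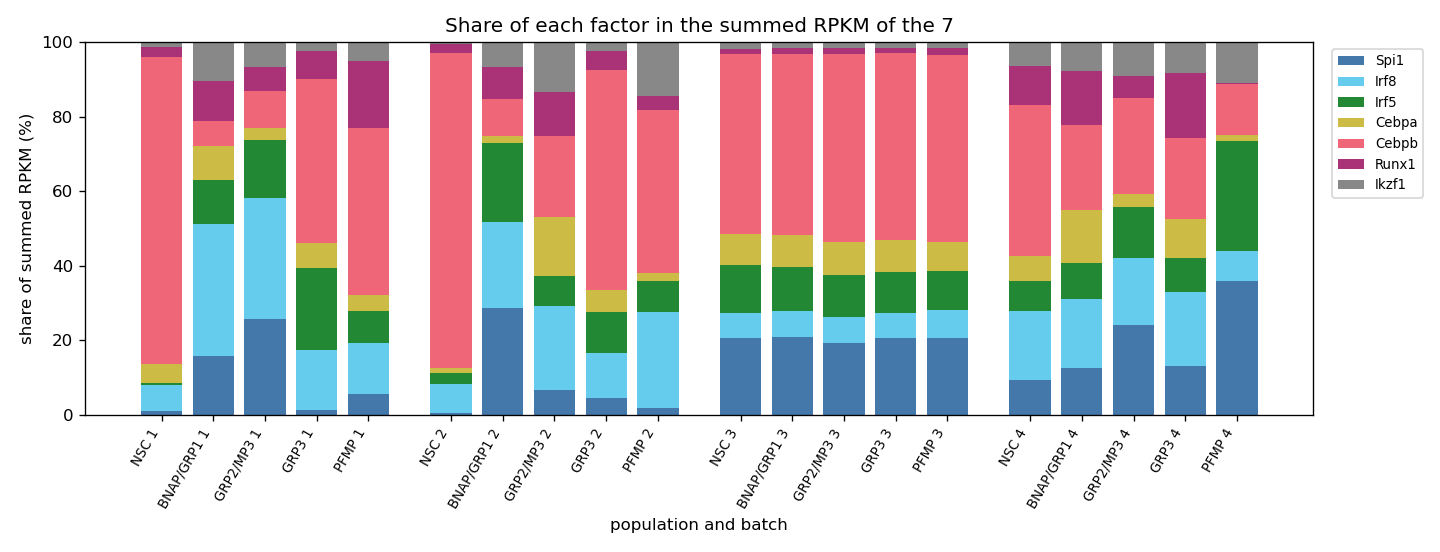
Share of each factor (colours) in the summed RPKM of the 7, in each of the 20 libraries, in percent. The 5 bars of batch 3 are nearly alike, with *Cebpb* at 48.3% to 50.5%, and the NSC bars of batches 1 and 2 are mostly *Cebpb*.

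The cell type markers that accompanied the factors differed in the same way. In BNAP/GRP1 and GRP2/MP3 of batches 1 and 2, 12 of 12 microglia markers were at 5 RPKM or more in each library, with a summed level of 1500 to 4779 RPKM, against 15.9 to 34.7 RPKM in NSC, GRP3 and PFMP of those batches. *P2ry12*, a purinergic receptor that defines microglia, ranged from 64.7 to 1101 RPKM in the first 4 libraries. In batch 3 the same list summed to 750 to 860 RPKM, but 4 of 12 markers reached 5 RPKM, and *P2ry12* (0.915 to 1.49 RPKM), *Tmem119* (0.687 to 1.10 RPKM) and *Cx3cr1* (0.355 to 1.18 RPKM) were near 0. The alveolar macrophage markers *Chil3* (558 to 658 RPKM), *Ear1* (115 to 151 RPKM) and *Marco* (78.8 to 87.7 RPKM) were high there, and *Ear1* was at 0 in NSC, GRP3 and PFMP of batches 1 and 2. The lung epithelial gene *Scgb1a1* was at 839 to 965 RPKM in batch 3, while *Sftpc*, the defining alveolar epithelial gene, was at 5.91 to 12.1 RPKM there and at 3.55 to 5.40 RPKM in NSC of batches 1 and 2. Border macrophage markers summed to 65.5 to 2521 RPKM in BNAP/GRP1 and GRP2/MP3 of batches 1 and 2 and to 1692 to 2043 RPKM in batch 3, with *Cd163* near 0 in batch 3. *Pf4*, which platelets also carry, was most of these sums, at 55.7 to 2365 RPKM and 1583 to 1917 RPKM, and the megakaryocyte and platelet list, which shares *Pf4*, summed to 72.8 to 2377 RPKM and 1593 to 1929 RPKM. Erythroid markers summed to 862 to 26515 RPKM in BNAP/GRP1 and GRP2/MP3 of batches 1 and 2, to 99.4 to 755 RPKM in NSC, GRP3 and PFMP of those batches and to 228440 to 252653 RPKM in batch 3. The part of these cell types in the levels of the 7 factors was not tested.

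**Figure D5:**
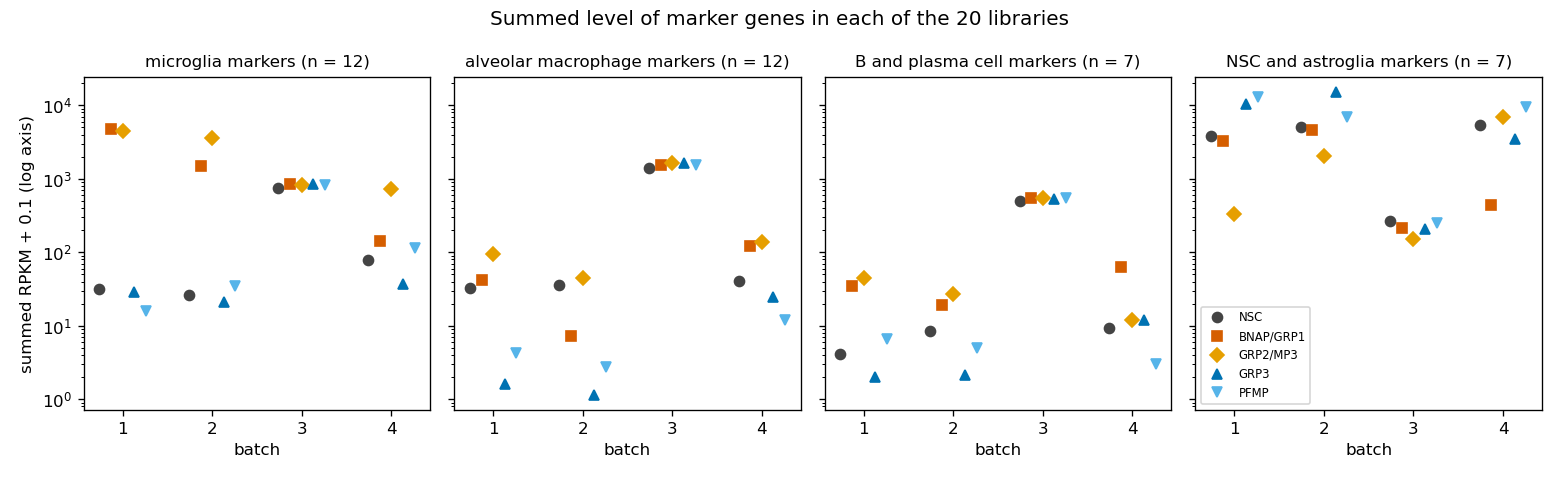
Summed RPKM (log axis) of 4 marker lists in each of the 20 libraries by batch, with 1 symbol per sorted population. Microglia markers were high in BNAP/GRP1 and GRP2/MP3 of batches 1 and 2, and alveolar macrophage and B cell markers in all 5 libraries of batch 3, where NSC and astroglia markers summed to 150 to 268 RPKM.

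Genes that act with the factors are given for the contrast of BNAP/GRP1 and GRP2/MP3 against GRP3 and PFMP, with the replicate block and without batch 3, which leaves fewer genes above the filter. Without the block and with batch 3, limma called 0 genes of any of the 9 lists in that contrast. It called 0 of all 27614 tested genes there, so the count for the lists could not differ. Of 20 known targets of PU.1 and C/EBP in myeloid cells, 17 were higher and 0 lower, where 2.05% of all tested genes were higher and 1.15% lower, with a median of 3.66 against 0.29 over all tested genes. *Csf1r*, the receptor for the microglial growth factors CSF1 and IL34, was higher by 3.71 ± 0.58 (adjusted p = 0.00306). Of 10 CSF receptors and ligands, of which 7 were tested, *Csf1*, *Csf1r*, *Csf2rb* and *Csf3r* were higher. *Csf2* and *Csf3*, the granulocyte and macrophage growth factors, were at 79.9 to 94.5 RPKM and 141 to 161 RPKM in batch 3 and at 0 to 3.098 RPKM and 0 to 0.0406 RPKM in BNAP/GRP1 and GRP2/MP3 of batches 1 and 2.

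Among 12 other haematopoietic factors, of which 9 were tested, *Lyl1*, *Tal1*, *Lmo2* and *Hhex* were higher, in the same fit that called 2.05% of all tested genes higher and 1.15% lower. *Lmo2*, a bridging protein of the TAL1 complex, was higher by 3.28 ± 0.53 (adjusted p = 0.00323). Of 18 other macrophage and microglia factors, *Mef2c*, *Maf* and *Klf2* were higher and 0 lower, *Maf* by 3.55 ± 0.54 (adjusted p = 0.00272). *Sall1*, a factor that marks microglia among macrophages but is also present in neural progenitors, was at 5.98 to 37.9 RPKM in BNAP/GRP1 and GRP2/MP3 of batches 1 and 2 and at 0 to 0.385 RPKM in batch 3. *Pparg*, needed for alveolar macrophages, was at 0.180 to 3.30 RPKM in the former and at 16.03 to 20.7 RPKM in the latter.

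Among the nearest relatives of the factors, the median log2 fold change in this fit was 0.89 for the ETS, 0.66 for the IRF, 0.54 for the C/EBP, 0.17 for the RUNX and -0.74 for the Ikaros list, against 0.29 over all tested genes, of which 2.05% were called higher. Of 10 ETS relatives, of which 9 were tested, *Fli1* was higher, by 2.84 ± 0.55 (adjusted p = 0.00846). Of 7 IRF relatives, of which 6 were tested, *Irf9*, which carries the type I interferon response, was higher by 1.58 ± 0.39 (adjusted p = 0.0357), and *Irf1* was the highest of the list by mean, at 32.1 RPKM over the 20 libraries. Of 5 RUNX relatives and partners, the corepressor *Cbfa2t3* was higher by 2.13 ± 0.43 (adjusted p = 0.0112), and the RUNX partner *Cbfb*, which is expressed widely, had the highest mean, at 50.9 RPKM. None of the 5 C/EBP or 4 Ikaros relatives was called by limma. At an unadjusted p under 0.05, 1 C/EBP relative was higher and 1 Ikaros relative lower, where 7.63% of all tested genes were higher and 5.75% lower.

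Across the 20 libraries the factors were correlated with each other, from r = 0.655 for *Cebpb* with *Ikzf1* to r = 0.983 for *Spi1* with *Irf5* (Pearson, log2(RPKM + 1)). With batch means taken out, *Spi1* with *Irf5* was still the highest pair, at r = 0.966, and *Irf5* with *Cebpb* the lowest, at r = 0.388. The genes most like *Spi1* were *Rac2* (r = 0.989), *Gngt2* and *Cd79b* as measured, and *Cyth4*, *Hmha1* and *Cd52* with batch means taken out. Those most like *Irf8* were *Csf3r*, *Inpp5d* and *Ccl9* as measured and *Cd37*, *Cd84* and *Fcgr4* with batch means taken out. For *Irf5* they were *Was*, *Fcgr4* and *Rac2*, then *Cd180*, *Rac2* and *Clec4a2*, and for *Cebpa* *A630033H20Rik*, *Cmklr1* and *Tnfrsf1b*, then *Csf2rb2*, *Rasal3* and *Msr1*. *Cebpb* was nearest to *Fam129b*, *Rsad2* and *Procr*, then to *Prr5l*, *Trim12c* and *Kcp*. *Runx1* was nearest to *Arid3a*, *Kcnk6* and *Csf3r*, then to *Cd28*, *Arid3a* and *Wdfy4*, and *Ikzf1* to *Csf3r* and *Apbb1ip*, then to *Apbb1ip*, *Cd33* and *Tnfrsf1b*. The points share libraries and batches, and the 5 libraries of batch 3 are close to 1 point.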

How the data were processed

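Periventricular cells were sorted into 5 populations in 4 batches, RNA was amplified, and 20 libraries were sequenced. Per the submitters' processing notes and the study's methods, reads were trimmed (cutadapt 3.4), aligned to GRCm38 (STAR 2.6.1) and quantified (Salmon 1.9.0), and the authors deposited RPKM values, 1 column per library. Gene lengths, read totals and the annotation release are not given in the sources used here. 26 unnamed columns were empty. Groups and batches came from the labels.

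Values were tested as log2(RPKM + 1) with limma 3.58.1 (R 4.3.3; trend, all 5 populations in 1 fit), over genes at 1 RPKM or more in at least 4 libraries, with Benjamini-Hochberg adjustment. The study's own test was on counts (DESeq2), which RPKM do not allow. A fold change on this scale understates low genes. Without a batch term, p-values measure the spread between batches of pooled litters. With the replicate block, shifts shared by the libraries of a batch are taken out, and p-values measure the spread that remains. The labels give a batch number that libraries share, so batch served as the replicate block: deviations from population means correlated within batches (medians 0.337, 0.262, 0.769 and 0.581, lowest 0.0341; between batches -0.254). Taking out the mean of only 4 libraries per population itself lowers the correlation between batches, so the -0.254 cannot be read alone. The fit was tested on simulated data with independent libraries and no batch effect, so that test does not cover the batches seen here. Alternatives were another pseudocount (0.1), 2 filters, 2 scalings, a prior without trend, library weights, the compared populations alone, the block, batch 3 left out, and each library or batch left out.

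All 7 members and their values are reported, listed genes where called or extreme by mean, and the 3 genes with the highest r per factor, of which 1 is not reported here. Members, gene lists, motifs and the contrast of BNAP/GRP1 and GRP2/MP3 against GRP3 and PFMP were chosen with earlier results of these data known.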

Additional observations from a re-analysis of the deposited data

Results flagged for a closer look

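Of 35 sets of 4 libraries (7 factors in 5 populations, log2(RPKM + 1)), 7 held a library farther from the other 3 than Dixon's 95% limit. Among independent sets chance flags about 1 in 20, but these sets share libraries. The share flagged over all tested genes was not computed, so the count cannot be read as particular to these factors. In 6 of the 7 flagged sets the library set apart was that of batch 3. In PFMP, *Spi1* was at 180 RPKM in batch 3 against 0.215 to 1.56 in the others, *Irf5* at 93.0 against 0.812 to 1.28, and *Cebpa* at 68.6 against 0.0657 to 0.393. In GRP3, *Irf5* was at 101 RPKM in batch 3 against 1.45 to 2.76, *Cebpa* at 78.3 against 0.791 to 2.25, and *Cebpb* at 462 against 4.66 to 7.79. The seventh was *Irf8* in GRP2/MP3, at 6.08 RPKM in batch 4 against 47.4 to 63.6 in the others.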

How the results depend on the processing

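None of the 7 factors was called in any comparison when the pseudocount was 0.1, the filter was dropped or raised to a mean RPKM of at least 5, the libraries were rescaled by median of ratios or by quantiles, the variance prior had no trend, or the compared populations were fitted alone. For BNAP/GRP1 and GRP2/MP3 against GRP3 and PFMP, these settings called 0 of all genes, so the count of factors could not differ from 0. Against NSC they called 61 to 454 of all genes. The replicate block moved the pair contrast (BNAP/GRP1 and GRP2/MP3 against GRP3 and PFMP) from 0 to 3 factors called and changed no other count of factors, while it raised the genes called from 210, 308, 290 and 316 to 576, 851, 719 and 771 against NSC and from 0 to 398 in the pair contrast. The block without batch 3 gave 2 factors for BNAP/GRP1, 2 for GRP2/MP3, 1 for PFMP and 6 for the pair, where 1.9%, 2.96%, 2.78% and 3.2% of tested genes were called in either direction. Library weights gave 5, 3, 6 for the pair and 11 over the direct comparisons, and the block with batches 1 and 2 alone, chosen after seeing the data, gave 2, 5, 5 for the pair and 10. Weights called 2622, 1924 and 2501 of all genes in the first 3 of these, and batches 1 and 2 alone 3.61%, 5.04% and 9.62% of tested genes. For the direct comparisons the share of all genes is not given here, so those counts cannot be read against it. Leaving out 1 library or batch gave 0 to 2 for BNAP/GRP1, 0 to 1 for GRP2/MP3, 0 to 5 for the pair and 0 otherwise. Leaving out batch 3 gave 2, 1 and 5, where 1.23%, 1.95% and 2.23% of tested genes were called. The number of genes called also depended on the setting: library weights called 2622 in BNAP/GRP1 and 2501 in the pair contrast, and a pseudocount of 0.1 called 75 and 0.

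Some small log2 fold changes against NSC changed sign, none of them past the threshold under the setting that turned it. *Cebpb* in GRP2/MP3 became 0.17 with quantiles and 0.39 with weights. In GRP3, weights gave -0.64 for *Spi1*, -0.57 for *Cebpa* and -0.32 for *Runx1*. *Cebpa* there was -0.019 with a pseudocount of 0.1, -0.033 by median of ratios, -0.0088 by quantiles, -0.078 with the block without batch 3 and -0.16 in batches 1 and 2 alone, and *Runx1* was -0.0085 with a pseudocount of 0.1, -0.0073 by median of ratios, -0.030 with the block without batch 3 and -0.10 in batches 1 and 2. In PFMP, *Spi1* was 0.19 by quantiles, 0.71 with weights and 0.065 in batches 1 and 2. *Irf5* there was 0.11 with a pseudocount of 0.1, 0.18 by quantiles, 0.57 with weights and 0.21 in batches 1 and 2, where *Runx1* was 0.010. With 1 library or batch left out, *Cebpb* ranged from -1.59 to 0.61 in BNAP/GRP1 and from -1.21 to 0.89 in GRP2/MP3. In GRP3 the ranges were -1.59 to 1.68 for *Spi1*, -1.32 to 0.62 for *Irf8*, -0.90 to 1.78 for *Irf5*, -1.29 to 1.21 for *Cebpa*, -0.60 to 0.60 for *Runx1* and -0.83 to 0.73 for *Ikzf1*. In PFMP they were -1.79 to 1.52, -1.90 to 0.20, -1.48 to 1.31, -2.13 to 0.54, -1.27 to 0.15 and -0.73 to 0.82 in the same order. The lower end of each range came with the progenitor's batch 3 library left out alone, and the upper end with that of NSC. Such a fit keeps batch 3 on 1 side of the comparison only. The cause of the other sign changes was not tested. Depth is known only in relative terms, so the lowest values carry no more than the read numbers given.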
